A study of Mus musculus with 8 samples.

Results

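The genes described here are 10 genes of late mitosis and cell division (Mki67, Top2a, Tpx2, Prc1, Nusap1, Anln, Ect2, Racgap1, Cep55 and Cdca3). They were chosen by name, with earlier results of these data known. The 10 genes had 16 probes among the 24341 probes of the array, and 18211 named genes had a probe in all. The array annotation lists Cep55 under an older symbol, and it was found through its accession. A single probe was present for 6 of the genes and several for 4.

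Total RNA was measured on Illumina bead arrays in 8 spontaneous mammary tumours. The imiquimod group was 4 tumours of mice given topical imiquimod cream for 1 cycle, and the control group was 4 tumours of mice given control cream. All mice in both groups were of the strain FVB/N-TgN (MMTVneu)-202Mul, in which the neu oncogene is driven by the mouse mammary tumour virus promoter, so that tumours arise in the mammary gland. Imiquimod activates Tlr7, a sensor of innate immunity, and the comparison asks how treated tumours differ from control tumours. The labels do not give the age of the mice and do not state from how many animals the 4 tumours of a group were taken. The p-values therefore reflect the spread between tumours, part of which could be technical. The epithelial keratins Krt8 and Krt18 were bright in every tumour, with mean log2 signals of 11.21 and 11.67 in imiquimod tumours and 11.26 and 11.87 in control tumours. Epcam, another epithelial marker, was dim on this array, with means of 6.74 in imiquimod tumours and 6.82 in control tumours.

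When chromosomes separate, antiparallel microtubules overlap between them and form the spindle midzone. This structure recruits the proteins that place the contractile ring, pinch the cell at its equator and finally cut the bridge between the daughter cells. Many of the genes involved are transcribed mostly in G2 and mitosis, so their RNA levels in a tissue rise with the share of cells that are dividing. Mki67 and Top2a are widely used as markers of dividing cells in tumours. Their common regulation is known to pass through a promoter element called CHR, with the letters TTTGAA or TTTAAA, and through CCAAT boxes, the sites of the factor NF-Y.

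The promoters are shown for 4 genes whose signal was lower in imiquimod tumours (Top2a, Mki67, Prc1 and Cdca3) and for Ect2, whose probe showed no difference past the threshold, because they show how these short elements are laid out. The sequences are from RefSeq on build GRCm38.p6, and each is the 200 bases before an annotated start, written 5′ to 3′ on the gene's strand. Capitals mark CCAAT and TTTGAA in either orientation (ATTGG and TTCAAA on the other strand). Prc1 and Ect2 have 2 annotated starts in the table, and 1 is shown.
Top2a, chr11:99024190-99024389, minus strand: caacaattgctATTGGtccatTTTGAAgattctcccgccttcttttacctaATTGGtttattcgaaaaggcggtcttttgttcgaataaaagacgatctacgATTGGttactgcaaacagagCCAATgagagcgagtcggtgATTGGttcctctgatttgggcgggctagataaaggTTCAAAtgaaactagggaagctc
Mki67, chr7:135716380-135716579, minus strand: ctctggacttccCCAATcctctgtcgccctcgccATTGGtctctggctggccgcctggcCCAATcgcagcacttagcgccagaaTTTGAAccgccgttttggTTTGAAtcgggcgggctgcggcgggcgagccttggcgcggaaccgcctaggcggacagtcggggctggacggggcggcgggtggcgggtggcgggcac
Prc1, chr7:80294276-80294475, plus strand: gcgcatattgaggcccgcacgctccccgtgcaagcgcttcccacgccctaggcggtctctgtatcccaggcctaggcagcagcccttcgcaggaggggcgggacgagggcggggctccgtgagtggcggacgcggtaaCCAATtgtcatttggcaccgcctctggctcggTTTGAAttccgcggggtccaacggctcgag
Cdca3, chr6:124829976-124830175, plus strand: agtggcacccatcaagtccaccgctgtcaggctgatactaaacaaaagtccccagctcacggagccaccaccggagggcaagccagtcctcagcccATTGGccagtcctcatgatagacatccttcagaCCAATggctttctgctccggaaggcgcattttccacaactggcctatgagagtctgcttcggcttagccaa
Ect2, chr3:27153855-27154054, minus strand: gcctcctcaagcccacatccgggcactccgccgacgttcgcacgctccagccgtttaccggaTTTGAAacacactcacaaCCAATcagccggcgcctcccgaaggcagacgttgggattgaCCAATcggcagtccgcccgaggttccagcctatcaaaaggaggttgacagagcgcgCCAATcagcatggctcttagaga
Top2a carries 6 copies of CCAAT in its window, 1 of them in the forward orientation, with a TTTGAA match starting 179 bases and another 23 bases before the start. Mki67 has a pair of forward TTTGAA matches at 116 and 98 bases before the start, downstream of its CCAAT boxes. The CCAAT box of Prc1 begins 62 bases and its TTTGAA 30 bases before the start that is shown. In Cdca3 the TTTGAA lies 31 bases after the start and is therefore outside the printed stretch.

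A promoter window of 250 bases before to 50 bases after a start was found for 9 of the 10 genes. TTTGAA, searched on both strands, was present in 8 of these 9 genes, Nusap1 being the exception, against 17.9% of all 32851 windows. CCAAT, also on both strands, was present in 6 of the 9 genes against 37.4% of all windows. Anln and Nusap1, which fell, had no CCAAT in their windows, and neither had Cep55. Both CCAAT and either form of the CHR letters were present in 6 of the 9 genes against 10.7% of all windows. A gene was counted if any of its windows matched. By window, TTTGAA was present in 11 of 12, CCAAT in 8 of 12 and both in 8 of 12. TTTAAA was present in none of the 9 genes against 13.2% of all windows, and the TATA letters TATAAA in none against 13.6%. These are matches of letters, and 0 matches of different motifs overlapped in these windows.

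The values used are the deposited log2 signals, and every difference is the imiquimod mean less the control mean, so that -1 on this log2 scale stands for a signal 0.5 times that of the controls. Each gene was first judged by its brightest probe, after the dimmest probes (mean log2 signal under 6.64) were set aside, in a limma fit over 13142 genes and unnamed probes. A gene was called changed at a Benjamini-Hochberg adjusted p below 0.05. Of the 10 genes, 9 were tested in this way and 7 fell, while none rose. In the whole fit 4.33% of genes were called, 2.2% lower and 2.13% higher. A called fall of at least 1 was seen in 6 of the 9 tested genes, against 0.388% of all tested genes. Of the 9 tested genes, 8 had no overlap between the groups, against 7.11% of all tested genes whose imiquimod values all lay below the control values. Racgap1 stayed in the fit through its control values, since its imiquimod mean lay under the limit of 6.64 below which probes were set aside. The median log2 difference of the 9 tested genes was -1.11, against -0.02 over all tested genes. In bulk tumour RNA, fewer dividing cells and less RNA per dividing cell cannot be told apart.

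**Figure D1:**
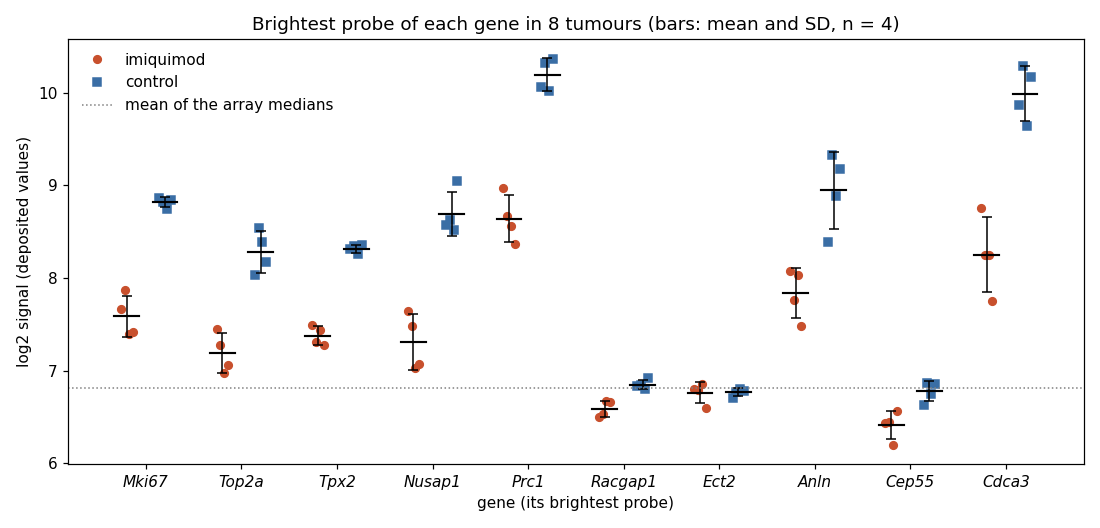
Log2 signal (vertical axis) of the brightest probe of each of the 10 genes (horizontal axis) in 4 imiquimod tumours (circles, left) and 4 control tumours (squares, right). Horizontal bars are the mean and vertical bars the SD, n = 4 each. The groups are apart for 7 bright genes and, by less, for Racgap1 and Cep55, while those of Ect2 overlap. Racgap1, Ect2 and Cep55 lie near or below the dotted mean of the array medians.

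The proliferation antigens Mki67 and Top2a both fell. Mki67 coats mitotic chromosomes and is absent from resting cells. Its log2 signal was 7.67, 7.87, 7.40 and 7.42 in imiquimod tumours 1 to 4, against 8.87, 8.82, 8.74 and 8.85 in control tumours 1 to 4. The control values lay within a narrow band (SD 0.06) and the imiquimod values were more spread (SD 0.22), with tumours 3 and 4 the lowest. The log2 difference was -1.23 (SE 0.11, limma adjusted p = 0.00131). The 2 other Mki67 probes were dim and overlapped between the groups, with differences of -0.06 and -0.08. When the kept probes of Mki67 were averaged the difference was -0.65.

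Top2a, the topoisomerase that untangles sister chromosomes, had log2 signals of 7.45, 7.28, 6.98 and 7.07 in imiquimod tumours 1 to 4, against 8.04, 8.54, 8.39 and 8.17 in control tumours 1 to 4. All imiquimod values were below all control values, by at least 0.59. The log2 difference was -1.09 (SE 0.14, limma adjusted p = 0.00513). Without imiquimod tumours 3 and 4 together it was -0.92 (limma adjusted p = 0.0572), which ends the call.

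The spindle proteins Tpx2, Nusap1 and Prc1 fell as well. Tpx2 activates the kinase Aurora A and starts microtubule growth around chromosomes. Its signal was 7.49, 7.31, 7.44 and 7.28 in imiquimod tumours 1 to 4, against 8.32, 8.35, 8.26 and 8.35 in control tumours 1 to 4. Both groups were tight, with an SD of 0.10 in imiquimod tumours and 0.04 in control tumours, and the difference of -0.94 had an SE of 0.07 (limma adjusted p = 0.000816).

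Nusap1 bundles microtubules near the chromosomes. Its signal was 7.64, 7.49, 7.03 and 7.07 in imiquimod tumours 1 to 4, against 8.58, 8.63, 8.52 and 9.04 in control tumours 1 to 4, so imiquimod tumours 3 and 4 were lower than 1 and 2 and control tumour 4 stood highest. The difference was -1.39 (SE 0.17, limma adjusted p = 0.00469). Its second probe was at the dim end of the array, with means of 6.43 in imiquimod tumours and 6.48 in control tumours, and the groups overlapped.

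Prc1 crosslinks the antiparallel microtubules of the midzone. Its signal was 8.97, 8.68, 8.56 and 8.37 in imiquimod tumours 1 to 4, against 10.07, 10.33, 10.02 and 10.37 in control tumours 1 to 4. The gap between the highest imiquimod and the lowest control tumour, 1.05, was the widest among the 7 genes. The difference was -1.55 (SE 0.14, limma adjusted p = 0.00131), which puts the imiquimod signal at 34.1% of the control signal.

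The genes around the small GTPase RhoA, which drives the contractile ring, gave less uniform values. Racgap1 is a subunit of centralspindlin, the complex that carries Ect2 to the midzone. Its brightest probe had 6.50, 6.53, 6.67 and 6.66 in imiquimod tumours 1 to 4, against 6.83, 6.84, 6.81 and 6.92 in control tumours 1 to 4. The groups did not overlap, but the difference of -0.26 (SE 0.07, limma adjusted p = 0.0682) did not pass. It passed with a background correction of normexp at an offset of 16 (-0.53, limma adjusted p = 0.046) and with an intensity trend in the variance model (limma adjusted p = 0.0422). The second Racgap1 probe had means of 6.58 in imiquimod tumours and 6.72 in control tumours, with overlap.

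Ect2, the exchange factor that activates RhoA at the equator, had 6.80, 6.80, 6.85 and 6.60 in imiquimod tumours 1 to 4, against 6.71, 6.77, 6.81 and 6.78 in control tumours 1 to 4. The groups overlapped and the difference was -0.002 (limma adjusted p = 0.99), with a 95% interval from -0.17 to 0.16. This probe lay near the array medians of about 6.82, so the interval says little of the transcript.

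Anln encodes anillin, the scaffold that ties RhoA, actin and myosin together in the ring. Its brightest probe had 8.07, 7.77, 8.03 and 7.49 in imiquimod tumours 1 to 4, against 8.39, 9.33, 8.88 and 9.18 in control tumours 1 to 4. The groups were apart by 0.32, the smallest gap among the genes that fell, with control tumour 1 nearest to the imiquimod tumours. The difference was -1.11 (SE 0.21, limma adjusted p = 0.0233). The call was lost without control tumour 3 or 4, without imiquimod tumour 2 or 4, and without imiquimod tumours 3 and 4 together, with limma adjusted p of 0.0531, 0.0697, 0.0623, 0.0621 and 0.157. Its mean over kept probes gave -0.68. A second Anln probe had 6.58, 6.45, 6.56 and 6.59 in imiquimod tumours 1 to 4, against 6.81, 6.83, 6.75 and 6.81 in control tumours 1 to 4, which do not overlap. With each of the 24341 probes tested alone, that probe gave -0.25 (limma adjusted p = 0.0649), and the third Anln probe gave -0.15 with overlapping groups.

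Cep55 gathers the ESCRT proteins that cut the midbody. Its single probe was set aside as dim and was read from the fit over every probe. It had 6.44, 6.45, 6.20 and 6.56 in imiquimod tumours 1 to 4, against 6.63, 6.87, 6.75 and 6.86 in control tumours 1 to 4. The highest imiquimod and the lowest control value were 0.07 apart, and the difference of -0.36 (SE 0.09, limma adjusted p = 0.0715) did not pass. With normexp at an offset of 16 it was -0.83 (limma adjusted p = 0.0581). With an intensity trend in the variance model it passed (limma adjusted p = 0.0448).

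Cdca3, a trigger of mitotic entry that promotes destruction of the kinase Wee1, had the largest difference of the 10 genes. Its signal was 8.75, 8.25, 8.25 and 7.76 in imiquimod tumours 1 to 4, against 9.87, 10.29, 9.64 and 10.17 in control tumours 1 to 4. Imiquimod tumour 4 was the lowest and tumour 1 the highest of the treated tumours. The difference was -1.74 (SE 0.21, limma adjusted p = 0.00483).

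Brightness sorted the results by probe. All 16 probes had a negative difference, 7 passed the threshold when each probe was tested alone, and 10 had no overlap between the groups. Over all probes 1.31% were called lower in that fit, and 5.05% had imiquimod values all below the control values. The 7 probes that passed had means of 7.74 to 9.42 over the 8 tumours. The other 9 probes had means below 7, none of them passed, and their differences ranged from -0.36 to -0.002. Among all tested genes with a mean below 7, 1 of 5222 was called lower (0.0191%), against 2.31% of those from 7 to 8, 4.55% of those from 8 to 9 and 5.42% of the brighter ones. The probes of Ect2, Racgap1 and Cep55 all lie in the lowest of these ranges.

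**Figure D2:**
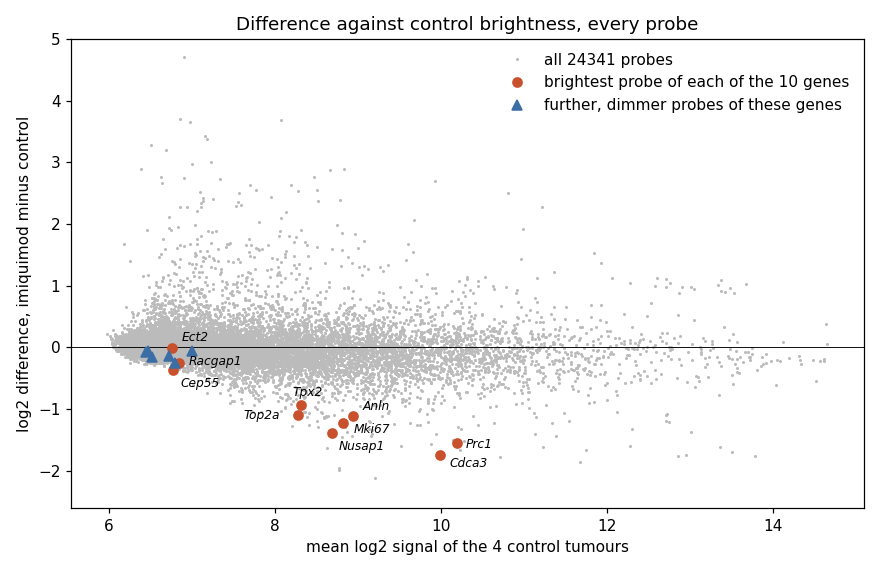
Log2 difference, imiquimod minus control (vertical axis), against the mean log2 signal of the 4 control tumours (horizontal axis) for 24341 probes (grey), the brightest probe of each of the 10 genes (circles) and their further probes (triangles). The 7 bright probes lie at -0.94 or lower, and the dim probes lie between -0.36 and -0.002.

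Whether the authors subtracted a background is unknown, and a background that stays in the values makes differences of dim genes look smaller. With normexp at an offset of 16 the differences of the 7 genes lay between -1.95 (Cdca3) and -1.23 (Tpx2). Nusap1 then had -1.79 and passed Prc1, which had -1.69, so the order of the genes by size depends on this choice. Differences between the genes in the size of their fall were not tested.

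**Figure D3:**
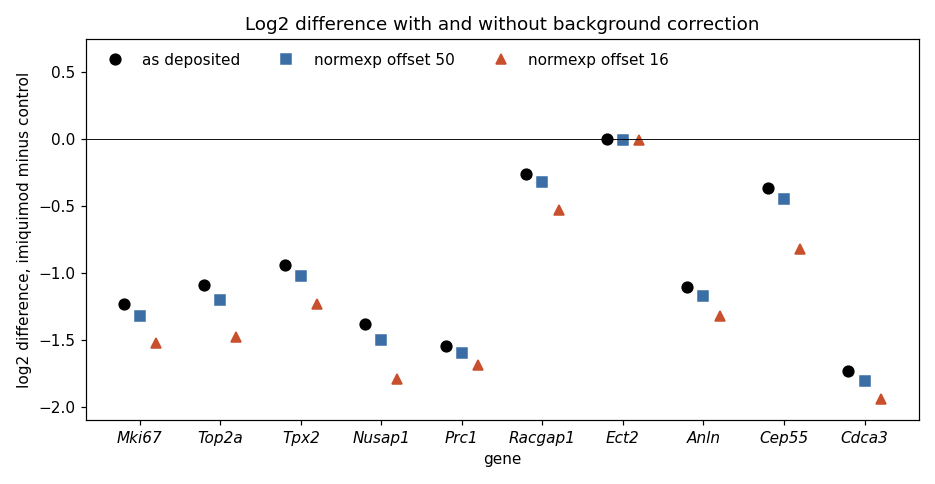
Log2 difference, imiquimod minus control (vertical axis), of the 10 genes (horizontal axis) on the deposited values (circles) and after normexp at an offset of 50 (squares) or 16 (triangles). Cep55 moves to -0.83 with an offset of 16, against -0.36 as deposited, and Ect2 has -0.01 with that offset, against -0.002 as deposited.

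The 7 genes that fell did so in every imiquimod tumour, and to a different depth. Their median distance from the control mean was -1.05, -1.18, -1.42 and -1.46 in imiquimod tumours 1 to 4, against -0.13, 0.13, -0.08 and 0.18 in control tumours 1 to 4. The lowest imiquimod value belonged to tumour 4 in 4 genes and to tumour 3 in 3 genes, and the highest to tumour 1 in 6 genes and to tumour 2 for Mki67. In the control group the lowest value belonged to tumour 3 in 5 genes.

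**Figure D4:**
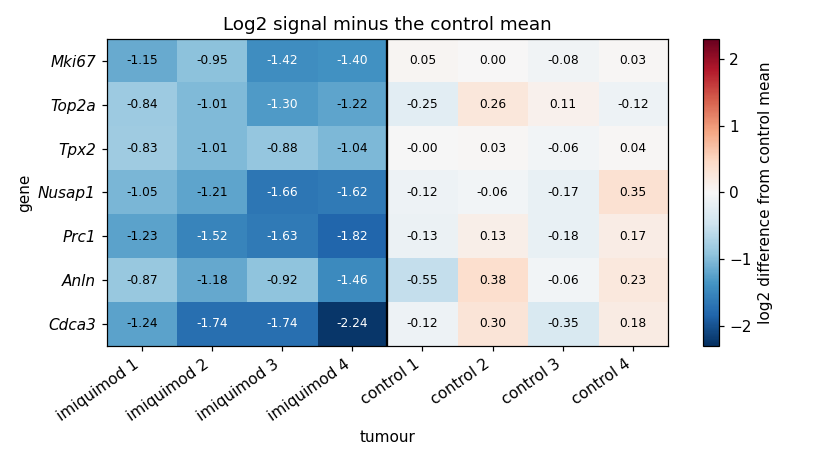
Log2 signal minus the control mean (colour and printed value) for the 7 genes that fell (rows) in 4 imiquimod tumours (left of the line) and 4 control tumours (right of it). The values run from -2.24 for Cdca3 in imiquimod tumour 4 to 0.38 for Anln in control tumour 2, and no imiquimod tumour reaches the control range.

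Markers of cell types were read from the same fit, and their part in the result was not tested. Of 7 macrophage markers, 4 rose (Adgre1, Aif1, Cd14 and Fcgr4), against 2.13% of all tested genes called higher. The dimmer second probes of Adgre1 and Aif1 gave 0.113 and 0.396, against 1.020 and 1.561 for the brightest probes. Without imiquimod tumours 3 and 4 together Aif1 lost its call (limma adjusted p = 0.0988). Csf1r, Cd68 and Lyz2 had differences of 0.06, 0.66 and 0.21 and did not pass. The summed log2 signal of the 7 markers was 62.95 to 68.21 in imiquimod tumours and 55 to 57.21 in control tumours. The mean distance of the macrophage markers from the control mean was 1.02, 1.07, 1.78 and 1.55 in imiquimod tumours 1 to 4. The median distance of the 7 genes that fell was lowest in tumours 3 and 4. Tpx2 and Anln were lower in tumour 2 than in tumour 3. A link between these values and the markers was not tested. None of 6 skeletal muscle markers passed. Their distance was 2.54 and 2.23 in imiquimod tumours 3 and 4 but -0.17 and -0.30 in tumours 1 and 2, and the sums were 39.92 to 56.95 in imiquimod tumours and 39.29 to 46.02 in control tumours. Of 7 fibroblast markers 1 rose, Dcn, a call lost when any single control tumour or imiquimod tumour 2, 3 or 4 was left out (limma adjusted p of 0.0678 to 0.122). The fibroblast list had sums of 49.35 to 58.26 in imiquimod tumours and 47.11 to 49.93 in control tumours. No T cell, adipocyte or endothelial marker passed, of 6, 4 and 4 tested. Their sums were 40.62 to 42.03, 29.86 to 37.66 and 29.08 to 32.14 in imiquimod tumours, against 40.58 to 41.57, 28.53 to 31.74 and 28.21 to 30.36 in control tumours. None of 6 luminal epithelial markers passed, with sums of 57.74 to 59.15 in imiquimod tumours and 58.18 to 59.34 in control tumours.

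Without imiquimod tumours 3 and 4 together, 5 of the 10 genes fell, while 0.312% of all tested genes were called lower. They were Mki67 (-1.05), Tpx2 (-0.92), Prc1 (-1.37), Nusap1 (-1.13) and Cdca3 (-1.49), with limma adjusted p from 0.01 to 0.0355. Fewer tumours enter that fit, and the number of all tested genes called lower went from 289 to 41. A call lost there need not mean a smaller difference.

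The direct partners of these proteins were read from the same fit. Of 11 listed midzone and cytokinesis partners 10 were tested, 6 fell and none rose, with a median log2 difference of -0.59. Of all tested genes 2.2% were called lower, and their median was -0.02. Without imiquimod tumours 3 and 4 together 3 of the partners fell, against 0.312% of all tested genes called lower. Aurkb, Incenp and Kif23 then lost their calls (limma adjusted p of 0.0519, 0.147 and 0.0652). Over all alternatives the differences of these genes came no closer to zero than -0.811, -0.438 and -0.653. All members of the chromosomal passenger complex were measured. This complex marks the midzone, and its members Birc5 (-1.40, SE 0.15), its kinase Aurkb (-0.90, SE 0.10) and the scaffold Incenp (-0.57, SE 0.10) fell, with limma adjusted p of 0.00302, 0.0041 and 0.0166. Its member Cdca8 had -0.38, which did not pass (limma adjusted p = 0.113). The other probes of Birc5 gave -1.32 and -1.07. Incenp had a limma adjusted p of 0.0507 without control tumour 4.

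The kinesin Kif23, the partner of Racgap1 in centralspindlin, fell by 0.72 on the log2 scale (SE 0.09, limma adjusted p = 0.00513). Its log2 signal was 7.12, 6.87, 6.91 and 7.04 in imiquimod tumours 1 to 4, against 7.58, 7.90, 7.64 and 7.70 in control tumours 1 to 4, with no overlap. Kif4, which sets the length of the midzone together with Prc1, fell by 0.61 (limma adjusted p = 0.00394). The mitotic kinase Plk1, which docks on Prc1, fell by 1.59 (SE 0.16, limma adjusted p = 0.00228), while its dimmer second probe gave -0.07 and the mean of its kept probes -0.83.

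Against 2.2% of all tested genes called lower, 4 of 11 tested spindle assembly genes (15 listed) fell and none rose (median -0.32). They were Aurka (-0.98), the kinase that Tpx2 activates, and the kinesins Kif22 (-1.26), Kif2c (-0.69) and Kifc1 (-0.31), with limma adjusted p from 0.0041 to 0.0364. Kifc1 lost its call when any single tumour other than control tumour 3 was left out (limma adjusted p of 0.0516 to 0.0982). Of 15 cyclin and mitotic control genes 9 were tested and 5 fell (median -0.45). Among them were Cdk1 (-1.45), Cdc20 (-1.37) and Foxm1 (-0.45), a transcription factor of G2 and mitotic genes. The dimmer probes gave 0.09 for Cdk1, -0.82 and -0.63 for Cdc20 and -0.06 for Foxm1. Of 10 replication genes all were tested and 5 fell (median -0.81), among them Mcm6 (-1.02) and Rrm1 (-1.04). The dimmer Mcm6 probes gave 0.12 and -0.08. Without imiquimod tumours 3 and 4 together, 1 spindle assembly gene, 2 cyclin and mitotic control genes and 2 replication genes fell (medians of -0.28, -0.40 and -0.74). Of all tested genes 0.312% were then called lower. Among the genes named here, Aurka, Kif2c, Kifc1, Cdk1, Foxm1 and Rrm1 lost their calls.

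A further list held genes that build the contractile ring or carry out abscission but are used by cells at other times too, such as RhoA itself, non-muscle myosins and ESCRT proteins. Of 18 listed genes 13 were tested, none fell and none rose. Over all tested genes 2.2% were called lower and 2.13% higher, so no call among 13 genes is near that share. The median log2 difference of the list was 0.14, with values from -0.30 (Diaph3) to 0.49 (Myh9). Rhoa, the GTPase that Ect2 activates, had 10.83 ± 0.12 in imiquimod tumours and 10.67 ± 0.27 in control tumours (SD, n = 4 each), a difference of 0.16 (95% interval -0.14 to 0.46, limma adjusted p = 0.555). Myh9, the heavy chain of a non-muscle myosin, had 11.69 ± 0.27 in imiquimod tumours and 11.20 ± 0.41 in control tumours (SD, n = 4 each; limma adjusted p = 0.224). The list was not tested against the others.

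**Figure D5:**
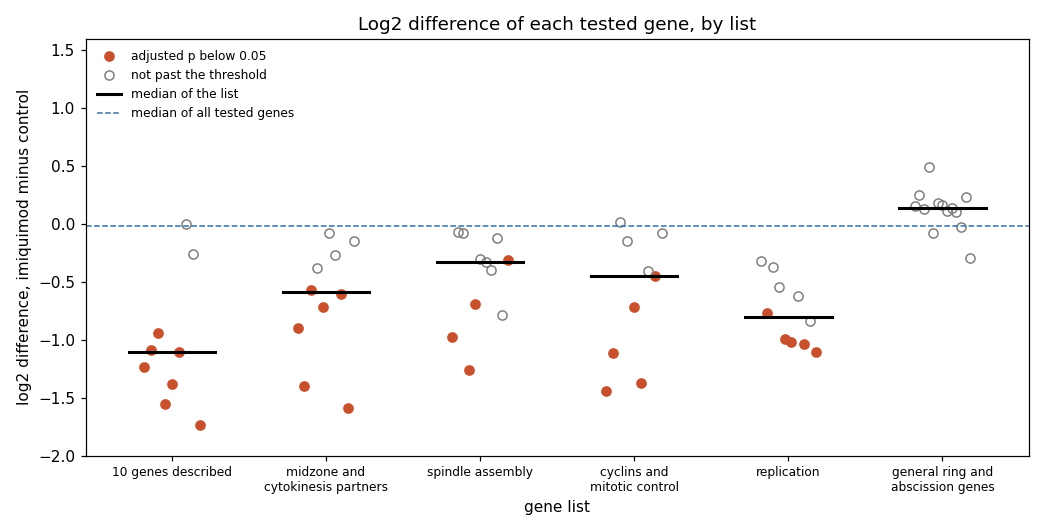
Log2 difference, imiquimod minus control (vertical axis), of each tested gene in 6 lists (horizontal axis), filled where the limma adjusted p was below 0.05. Black bars are list medians, from -1.11 for the 10 genes to 0.14 for the general ring and abscission genes, and the dashed line is the median of all tested genes (-0.02).

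The genes whose pattern over the 8 tumours was nearest to the median of the 9 tested genes were sought among all tested genes, by the mean absolute difference of their distances from the control mean. They were Ccnb1 (0.0847), Ckap2l (0.108), Tyms (0.109), Cdca5 (0.114) and Cdca2 (0.123), all on the log2 scale. Ccnb1 is a cyclin of mitotic entry and Tyms makes thymidylate for DNA synthesis. Cdca5 is known as sororin, which holds sister chromatids together. Their own log2 differences were -1.11, -1.19, -1.11, -0.97 and -1.15, a size that the choice by likeness fixes.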

How the data were processed

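Total RNA of 8 tumours, 4 of them treated with imiquimod, was labelled as biotin cRNA with an Illumina TotalPrep kit, per the labels' protocols. The log2 values the authors deposited have almost the same distribution on each array. The highest value, however, was 14.858 on every control array and 15.074 on every imiquimod array. Each array held only 1611 to 1870 distinct values for its 24341 probes, so many probes share a value. The submitters' processing notes name the tool affy with no version or role, and nothing used here states a background correction or a detection call. Between 92.25% and 94.37% of the distinct values on an array also occurred on another array, and no 2 arrays were identical. The 16 columns of unnormalized signals and their spreads carry numbers that match no sample label and were not used. Septin symbols appear there as calendar dates, so probes were named by accession first (20038 of 24341), then by symbol, through RefSeq genes of GRCm38.p6. This did not resolve every such name, and 4-Sep remained.

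Probes with a mean log2 signal under 6.64 were left out, and each gene was represented by its brightest probe. Imiquimod was compared with control in limma 3.58.1 and R 4.3.3 (lmFit, eBayes, two-sided, no covariates), with Benjamini-Hochberg adjustment over 13142 units. A second fit took all 24341 probes singly. Simulated data over 13142 genes had independent normal noise for each gene, and genes were shifted downward only. There 45 of 50 changes of 1 (90%) and 23 of 50 of 0.5 (46%) were recovered, with 4 false calls of 168. Variation that the genes of a tumour share was not simulated. The full shift was given to genes of any brightness, without a background that makes differences of dim genes look smaller. The recovered shares therefore do not carry over to dim probes. Precision is limited by the number of arrays.

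The 10 genes, the partner and marker lists and the motifs were chosen with earlier results of these data known. By rule all 10 genes are named with every probe, as are the 5 nearest genes and the marker lists, while any partner gene past the threshold, and up to 4 others, may be named. Same-numbered tumours of the groups did not deviate together (correlations -0.02 to 0.04). Alternatives covered normalization, background correction, the filter, the variance model, array weights, the choice of probe, the replicate block, the threshold and tumours left out.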

Additional observations from a re-analysis of the deposited data

Results flagged for a closer look

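Among 32 groups of 4 probe values, 2 held a tumour far from the other 3, and chance gives about 1 in 20 such groups. The dim second Mki67 probe had 6.79 in imiquimod tumour 4, against 6.98 to 7.01 in the other imiquimod tumours. The dim second Racgap1 probe had 6.74 in imiquimod tumour 1, against 6.52 to 6.54 in the others. Neither probe passed the threshold.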

How the results depend on the processing

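Of the 10 genes, 5 to 8 were called lower over 23 alternatives (7 as reported). Mki67, Tpx2, Prc1, Nusap1 and Cdca3 kept their call in all 23, Top2a in 22 and Anln in 16. The count of probes called lower was 6 to 9 of 16 over 19 alternatives (7 as reported). Labels give both groups the same replicate numbers, but these share only a number. With the replicate block 6 of the 10 genes and 501 genes in all were called, and Anln had a limma adjusted p of 0.0667. Over all genes 569 were called, 130 at an adjusted p below 0.01 and 112 without imiquimod tumours 3 and 4 together, where 3 of the midzone and cytokinesis partners remained against 6. With single tumours left out the count ran from 279 (without imiquimod 3) to 913 (without imiquimod 1), with 302 and 314 without imiquimod 2 and 4 and 308, 379 and 297 without control 1, 3 and 4. Ect2 had 0.034 without imiquimod 3 and 4 and 0.001 with arrays centred on their 75th percentile, and -0.032 to 0.052 with single tumours left out, against -0.002. Values near the array medians (6.82) are limited by the unknown background.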
